A study of Drosophila melanogaster with 22 samples.

Results

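The gene apterous (ap, FBgn0267978) lies on chromosome arm 2R of Drosophila melanogaster and was represented by 1 entry among 13686 uniquely named genes in the deposited expression tables. It was chosen by its name alone, and its row was read in all 9 columns. Its level is given as FPKM, a fragment count scaled by transcript length and by library size, which corrects for length and so allows genes to be compared within a column. Messenger RNA had been sequenced from whole embryos of the OregonR strain aged 2 to 4, 6 to 8 or 16 to 18 h. In the y;cn,bw,sp strain it had been sequenced from the leg disc, the haltere disc and the wing disc of late larvae (L3). It had also been sequenced from the leg of thoracic segment T3, haltere and wing of pharate adults at stage P14. The sample titles name T3 for the pharate leg RNA but no segment for the leg disc RNA. The haltere is the balancing organ that stands in the place of a hindwing, imaginal discs are the larval epithelial sacs that form adult appendages, and the pharate adult is the finished fly still inside its pupal case. The labels name replicates 1 and 2 behind each sample, but each tissue had 1 FPKM value, so there is no spread between replicates and no test below. Embryos and appendages also differed in strain, and the wing grows on another thoracic segment than the T3 leg and haltere, so strain or segment and tissue cannot be told apart. No depth can be read from FPKM values.

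Apterous is a LIM homeodomain transcription factor and the selector gene of the dorsal compartment of the wing. It acts in a complex with the cofactor Chip (Chi), which the protein Ssdp stabilises, and the LIM-only protein Beadex (Bx) competes with it for Chi. In dorsal cells of the wing disc it turns on fringe (fng) and Serrate (Ser), which set up Notch signalling along the border with ventral cells and so the expression of wingless (wg) and vestigial (vg) there. Outside the wing and haltere, ap marks the fourth tarsal segment of the leg, a set of interneurons and neurosecretory cells of the nerve cord, and the lateral transverse muscles of the embryo.

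The ap transcript was most abundant in the wing at both stages, intermediate in the haltere and lowest in the leg, and in embryos it was lowest at 2 to 4 h. In larvae, ap was listed at 61.9 FPKM for leg discs, 539 for haltere discs and 756 for wing discs. In pharate appendages it was listed at 79.3 FPKM for the leg, 203 for the haltere and 659 for the wing. Both sets thus had the same order of tissues, but the pharate haltere stood closer to the leg than the haltere disc did. Embryos of 2 to 4 h had 2.78 FPKM, those of 6 to 8 h had 48.4 and those of 16 to 18 h had 38.6. Its messenger RNA was measured in bulk tissue, where fewer ap-expressing cells and less ap RNA per cell cannot be told apart.

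**Figure D1:**
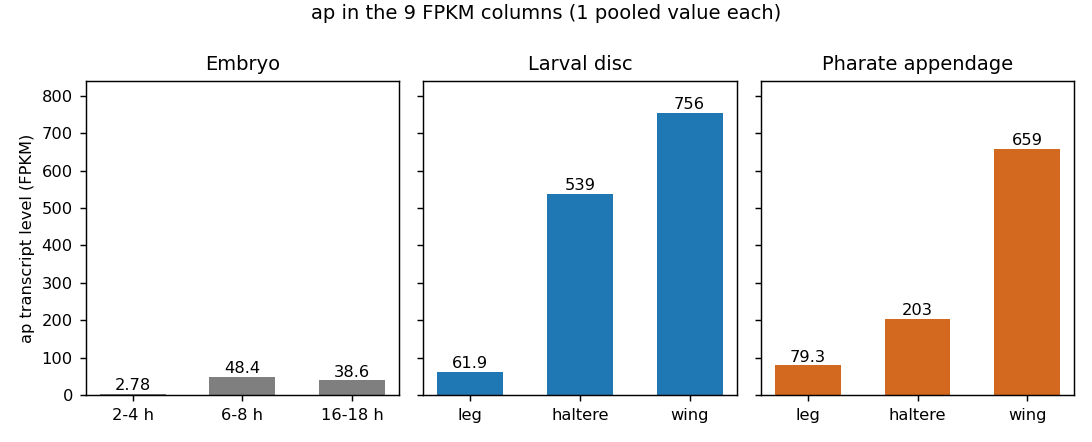
Level of ap (FPKM, linear axis from 0) in the 9 samples, 1 bar for each pooled value with no error bar because no replicate values were used. Wing discs (756) and pharate wings (659) have the tallest bars and embryos at 2 to 4 h the shortest (2.78).

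Ranked among all 13686 genes of its column, ap was 5707th from the top for leg discs (percentile 58.3, the share of genes below it), 1240th for haltere discs (90.9) and 729th for wing discs (94.7). Among pharate appendages it was 4842nd for the leg (64.6), 2669th for the haltere (80.5) and 1198th for the wing (91.2). Its rank was 7643 in embryos of 2 to 4 h (44.2), 5922 in those of 6 to 8 h (56.7) and 7176 in those of 16 to 18 h (47.6). Many genes were listed at 0, and among genes above 0 its level was 0.602 times the column median for leg discs, 5.26 times for haltere discs and 6.97 times for wing discs. The corresponding values for pharate appendages were 0.915 for the leg, 2.47 for the haltere and 7.61 for the wing. Embryos had 0.0238, 0.459 and 0.495 times that median, in order of age. By these measures ap was among the more abundant transcripts of wings and of the haltere disc, and the pharate haltere came next. In legs and embryos it was below the median of genes above 0. Most of all 13686 genes still ranked below it in leg discs, the pharate leg and embryos of 6 to 8 h.

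**Figure D2:**
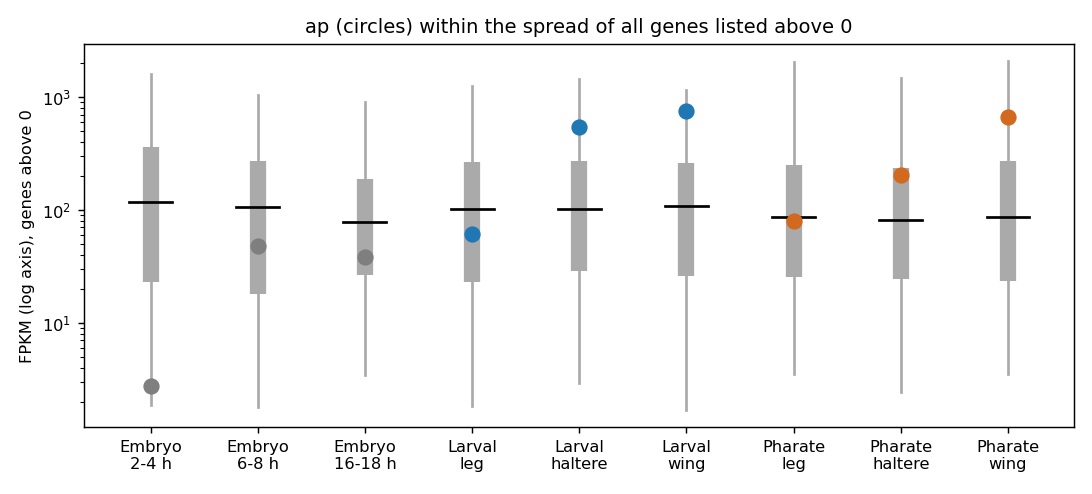
Level of ap (circles, FPKM on a log axis) within each column, beside all genes above 0 in that column, with thin lines from the 5th to the 95th percentile, thick bars between the quartiles and a black line at the median. The circle lies above the thick bar in the haltere disc (539), wing disc (756) and pharate wing (659), inside it in legs, pharate haltere and the older embryos, and below it at 2 to 4 h (2.78).

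Across the whole tables, upper quartiles of all entries lay between 139 and 169 FPKM, and 8284 to 10568 genes were above 0 in a column. The 10 highest genes held 7.99% to 33.4% of a column's summed FPKM, the most in the pharate wing. The labels of the appendages were checked against known genes. The posterior thoracic Hox gene Ubx was listed at 319 and 332 FPKM in leg and haltere discs and 6.06 in the wing disc, and at 59.0, 410.3 and 0 in the pharate leg, haltere and wing. The limb gene dac was highest in the leg disc (467) and the pharate leg (101.0), and the wing selector vg in the wing disc (314) and the pharate wing (127). Several genes known to be active in a tissue were listed at 0, such as the muscle myosin gene Mhc in all 3 pharate appendages. A value of 0 is therefore given only as listed, and ap itself was above 0 throughout.

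The leg disc, which forms a ventral limb, was set against the wing disc. With 61.9 FPKM in the leg disc against 756 in the wing disc, ap was 12.2-fold lower in the leg disc. On the log2 scale with 1 FPKM added to both values, which is used for all differences below, this was -3.59. Genes with at least 5 FPKM in either column were compared and called apart at 2-fold or more, and of 8321 such genes 3.55% were that much lower in the leg disc and 10.7% higher (14.2% in either direction). The median difference of these genes was 0.05, and 112 of them (1.35%), ap included, were as far below the wing disc as ap. Against the haltere disc with 539 FPKM the difference of the leg disc was -3.10 (8.71-fold lower). There 12.6% of 8529 genes were 2-fold lower in the leg disc and 3.24% higher (15.8% in all), and 98 genes (1.15%) were as far down as ap. With columns scaled to equal ribosomal protein sums, the genes 2-fold apart between leg and haltere discs were 39.5% higher and not 20.4%.

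Haltere and wing discs, both dorsal appendages, were much closer in ap. The haltere disc had 539 FPKM against 756 in the wing disc, a difference of -0.49 that did not reach 2-fold. Of 8577 genes, 4.29% were 2-fold lower in the haltere disc and 15.5% higher (19.8% in all), the median difference was 0.04, and 1336 genes (15.6%) were as far down as ap. As deposited, 78.3% of the genes 2-fold apart were higher in the haltere disc. With equal ribosomal protein sums that share was 36.5%, the median of all genes moved by -0.64 and ap stood at -1.13, past 2-fold. Columns brought to the same summed FPKM gave a share of 41.5%, a move of the median by -0.56 and -1.06 for ap. Relative to the median of all genes ap was at -0.53.

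Markers of other tissues differed between the discs in the same comparisons. All 6 fat body markers were at least 2-fold higher in the leg disc (summed level 4253 FPKM) and in the haltere disc (15199) than in the wing disc (1189). Of 6 muscle markers, 5 were higher, with sums of 21704, 75565 and 6983 FPKM in leg, haltere and wing discs, and wupA was listed at 0 in leg and haltere discs. Among midgut markers 3 of 3 compared were higher in the leg disc and 5 of 5 in the haltere disc (sums 551, 3006 and 141), and Jon99Ciii was listed at 0 in the wing disc. Salivary gland markers were higher for 4 of 4 compared in both discs (sums 7855, 27794 and 2411), with Sgs4 listed at 0 in each disc. Haemocyte markers were higher for 3 of 4 in the leg disc and 4 of 4 in the haltere disc (sums 96.4, 309.6 and 34.0). Myoblast markers went the other way, with 1 of 4 lower in the leg disc and 3 of 4 lower in the haltere disc relative to the wing disc (sums 185.8, 186.0 and 399). The 5 epithelial markers Dll, ptc, dpp, wg and fj, all above 0 in each disc, summed to 1904, 702 and 1411 FPKM. Of these sums Dll, also a tarsal gene of the leg, held 866, 57.8 and 229. For leg against wing disc, Dll was the 1 marker 2-fold up (1.92), 0 were down and 4 were within 2-fold (median -0.13). For haltere against wing disc, 2 were 2-fold down (Dll and fj) and 3 within 2-fold. Tracheal markers, 3 in number, summed to 718, 655 and 839, with verm listed at 0 in each. Neuron markers summed to 20.4, 18.6 and 16.0, with brp at 0 in haltere and wing discs and n-syb at 0 in the haltere disc. The part of these tissues in the ap values was not tested.

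Among pharate appendages ap differed between all 3 pairs by more than 2-fold. The pharate leg had 79.3 FPKM against 659 in the pharate wing, a difference of -3.04 (8.31-fold lower), where 14.7% of 9011 genes were 2-fold lower in the leg and 21.7% higher (36.4% in all). The pharate haltere had 203 FPKM against 659 in the pharate wing, a difference of -1.69 (3.25-fold lower), with 18.8% of 8990 genes 2-fold lower and 20.3% higher (39.1% in all). The pharate leg had 79.3 FPKM against 203 in the pharate haltere, a difference of -1.35 (2.56-fold lower), with 14.3% of 9044 genes 2-fold lower and 17.1% higher (31.3% in all). Genes as far down as ap made up 4.05%, 8.88% and 10.2% of those compared in these pairs. Equal ribosomal protein sums moved the share of higher genes among those 2-fold apart to 30.2% for leg against wing (59.6% as deposited) and to 28.3% for haltere against wing (52.0%). Equal summed FPKM gave 76.8% for haltere against wing and 28.2% for leg against haltere (54.4% as deposited). Under every scaling tried, ap stayed more than 2-fold lower in each of these pairs, with differences from -3.63 to -2.92 for leg against wing, -2.23 to -1.12 for haltere against wing and -1.90 to -1.41 for leg against haltere.

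Marker levels differed here too. Haemocyte markers were 2-fold higher for 4 of 4 compared in the pharate leg and 3 of 3 in the pharate haltere than in the pharate wing (sums 391, 442 and 89.4 FPKM, with He listed at 0 in the wing). Muscle markers summed to 242523, 13592 and 26213 FPKM for pharate leg, haltere and wing, with Mhc and up listed at 0 in all 3 and wupA at 0 in the leg. Neuron markers summed to 473, 509 and 248 FPKM with all 4 above 0. In the haltere relative to the wing, 2 of the 4 were 2-fold higher, 1 lower and 1 within 2-fold. The lower one was elav, at 43.1, 13.3 and 31.9 in leg, haltere and wing. In the leg 1 of 4 was 2-fold higher than in the wing and 3 were within 2-fold. Fat body markers summed to 149.9, 71.3 and 52.6, with Lsp1alpha listed at 0 in the haltere. Midgut markers summed to 43.0, 184.5 and 13.6, with Jon65Aiii, Jon65Aiv and Jon99Ciii at 0 in all 3 and LysB at 0 in the haltere. Salivary gland markers were at 0 but for a sum of 0.462 in the wing. Myoblast markers summed to 398, 120.1 and 172, with twi at 0 in all 3 and Him at 0 in haltere and wing. Tracheal markers summed to 1755, 1436 and 1006, with verm at 0, and serp alone held 1732, 1435 and 991. The tracheal marker trh, at 22.4, 1.81 and 14.2, was 2-fold lower in the haltere than in the wing. Epithelial markers summed to 802, 456 and 353. Among them fj was 2-fold higher in leg and haltere than in the wing (393 and 269 against 70.1). In the leg wg was 2-fold lower than in the wing (2.97 against 22.1). The other epithelial differences from the wing were within 2-fold. The part of these tissues in the ap values of pharate appendages was not tested.

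**Figure D3:**
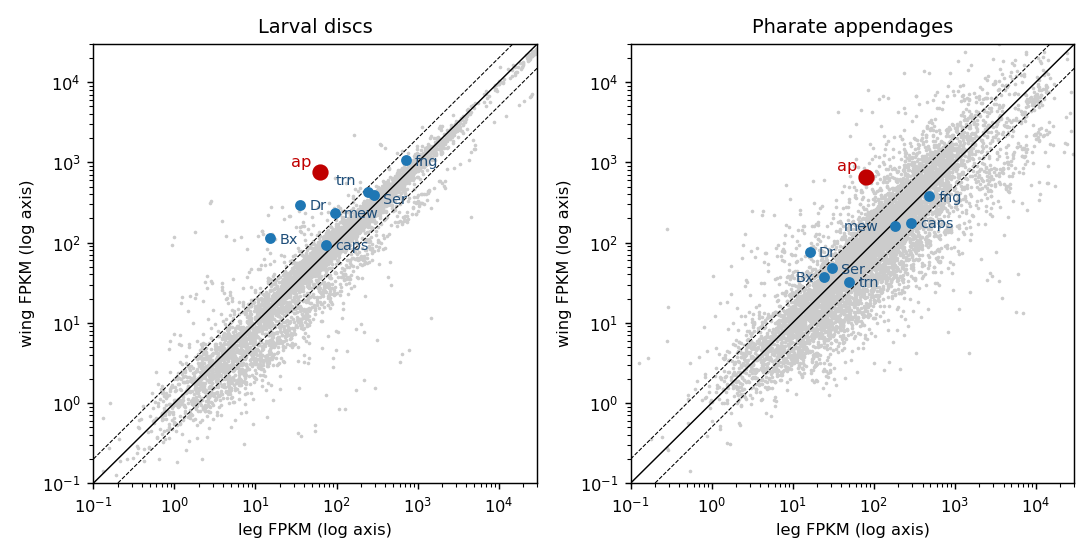
Wing level against leg level (FPKM, both axes log) for genes with at least 0.1 FPKM in both columns within the window drawn (grey), ap (red) and 7 genes of the dorsal wing (blue), in larval discs (left) and pharate appendages (right). Solid lines mark equal levels and dashed lines 2-fold, and ap lies above the upper dashed line at both stages (61.9 against 756, and 79.3 against 659).

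Disc and pharate levels come from tables that may have been normalised separately, so they are set side by side only. The pharate leg had 79.3 FPKM and the leg disc 61.9, the pharate haltere 203 and the haltere disc 539, and the pharate wing 659 and the wing disc 756. By percentile in its own column, the pharate leg was at 64.6 and the leg disc at 58.3, the pharate haltere at 80.5 and the haltere disc at 90.9, and the pharate wing at 91.2 and the wing disc at 94.7. The haltere was thus the appendage in which the place of ap differed most between the stages.

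In embryos, ap was low at 2 to 4 h and several-fold higher afterwards. Embryos at 6 to 8 h stood 3.71 above embryos at 2 to 4 h, where 25.9% of 8244 genes were 2-fold higher and 18.9% lower (44.8% in all), and 526 genes (6.38%) were as far up as ap. Embryos at 16 to 18 h stood 3.39 above those at 2 to 4 h, with 41.2% of 10190 genes 2-fold higher and 33.5% lower (74.7% in all), and 2673 genes (26.2%) were as far up as ap. Between 16 to 18 h and 6 to 8 h the difference was -0.32, within 2-fold, with 34.7% of 10173 genes 2-fold higher and 31.1% lower (65.8% in all), and its sign turned, to 0.18 with upper quartile scaling and 0.025 with equal ribosomal protein sums. The first difference ran from 2.78 to 4.07 over the pseudocounts and scalings tried. Scaling also moved the share of higher genes among those 2-fold apart, as deposited 57.9% for 6 to 8 h against 2 to 4 h, 52.8% for 16 to 18 h against 6 to 8 h and 55.1% for 16 to 18 h against 2 to 4 h. With upper quartiles made equal the shares were 74.5%, 67.1% and 72.1%.

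The LIM homeodomain family was represented by 7 genes, and ap was the most abundant of them in all 6 appendage samples. It made up 46.2%, 87.8% and 93.6% of the summed family FPKM in leg, haltere and wing discs, and 69.5%, 99.8% and 99.2% in the pharate leg, haltere and wing. In embryos it was number 3 of 7 at 2 to 4 h (3.70%) and 6 to 8 h (14.0%) and number 5 at 16 to 18 h (11.2%). These shares do not depend on how columns are scaled. Lim1, a gene of the leg tip and of neurons, ran against ap, with 54.2, 2.05 and 0.443 FPKM in leg, haltere and wing discs. Its pharate values were 33.1, 0.480 and 0 FPKM in leg, haltere and wing. The islet gene tup, which acts in the notum and in motor neurons, was listed at 2.55, 68.7 and 38.3 FPKM in leg, haltere and wing discs and at 0, 0 and 2.19 in the pharate appendages. In embryos tup was listed at 65.9, 182 and 85.5 FPKM with time and Lim3, a motor neuron gene, at 0, 3.71 and 72.7. Awh was listed at 15.3, 4.25 and 12.8 FPKM in leg, haltere and wing discs and at 0 in all pharate appendages, while Lim3 was at 0 in all discs. Besides ap itself, tup was 2-fold lower in the leg disc relative to the wing disc and Lim1 higher among the 4 family members compared. Both calls held under every scaling tried. Of all genes, 3.55% were that much lower there and 10.7% higher.

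The genes of the complex members Chi and Ssdp and of the competitor Bx were compared with ap. Chi differed less than ap in every pair of discs, whereas Bx and Ssdp differed more than ap between haltere and wing discs (-1.84 and -1.02, against -0.49 for ap). Chi had 373, 365 and 359.9 FPKM in leg, haltere and wing discs, and stood at 149.6, 130.1 and 178 in the pharate leg, haltere and wing. Transcripts of ap were thus 0.166, 1.48 and 2.10 times as abundant as those of Chi in leg, haltere and wing discs. In pharate appendages this ratio was 0.530, 1.56 and 3.71 for leg, haltere and wing. Ssdp was listed at 57.7, 39.0 and 79.8 FPKM in leg, haltere and wing discs and at 47.1, 32.1 and 58.6 in the pharate leg, haltere and wing. The inhibitor Bx had 15.3, 30.9 and 113 FPKM in leg, haltere and wing discs, with ap at 4.06, 17.4 and 6.68 times its level. The ratio of ap to Bx was thus highest in the haltere disc among discs, while in pharate appendages, at 3.22, 7.44 and 17.5, it was highest in the wing. Relative to wing discs, 3.55% of all genes were 2-fold lower in the leg disc and 4.29% in the haltere disc. For the haltere disc that was 368 of 8577 genes as deposited, and 1884 with equal ribosomal protein sums. Of the 3 genes Chi, Ssdp and Bx, 1 (the competitor Bx) was 2-fold lower in the leg disc and 2 (Bx and Ssdp) in the haltere disc, and 0 were higher, under each scaling tried. Medians of the 3 were -0.46 for leg and -1.02 for haltere against wing disc, where all genes had 0.05 and 0.04. Embryos at 2 to 4, 6 to 8 and 16 to 18 h were listed at 877, 516 and 219 FPKM for Chi, 1142, 397 and 212 for Ssdp and 10.1, 10.8 and 55.3 for Bx, so that ap was 0.00317, 0.0938 and 0.176 times as abundant as Chi.

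**Figure D4:**
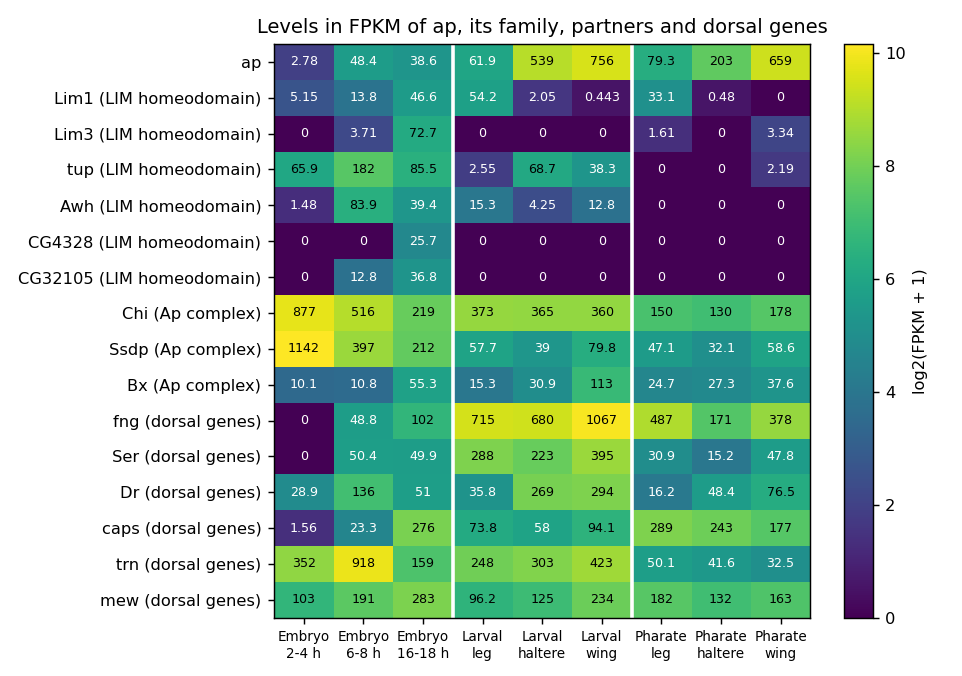
Levels of ap, the other LIM homeodomain genes, the genes labelled Ap complex (Chi, Ssdp and the competitor Bx) and genes of the dorsal wing in the 9 samples, with FPKM printed in each cell and log2(FPKM + 1) as colour. The row of ap is brightest in wing and haltere discs and the pharate wing, Chi is nearly level across discs (373, 365 and 359.9), and most other family members are at or near 0 in pharate appendages.

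Genes known to lie downstream of ap in the dorsal wing were compared next. Only some of them followed the leg to wing difference of ap. Of all genes, 3.55% were 2-fold lower in the leg disc relative to the wing disc and 10.7% higher. Of the 7 dorsal genes, 3 were lower and 0 higher (median -0.77, all genes 0.05), and with equal ribosomal protein sums 4 were lower. These were Dr (msh), a homeobox gene of dorsal identity, at 35.8 FPKM in the leg disc against 294 in the wing disc, Bx, and the integrin gene mew at 96.2 against 234. The Notch-modifying enzyme gene fng was listed at 715 in the leg disc against 1067 in the wing disc, and the Notch ligand gene Ser at 288 against 395. Hence ap was 0.0865 times as abundant as fng in the leg disc and 0.709 times in the wing disc, but 1.73 and 2.57 times as abundant as Dr. The cell surface protein genes caps and trn, at 73.8 and 248 FPKM in the leg disc against 94.1 and 423 in the wing disc, were also within 2-fold. In the haltere disc 1 of 7, Bx, was 2-fold lower than in the wing disc (median -0.69, all genes 0.04), where 4.29% of all genes were lower. With equal ribosomal protein sums or equal summed FPKM 6 of 7 were lower. Those scalings put 1884 and 1551 of all 8577 genes lower, against 368 as deposited. The haltere disc had 269 FPKM of Dr, 679.7 of fng and 223 of Ser.

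In pharate appendages 1 of the 7 dorsal genes, Dr, was 2-fold lower in the leg than in the wing (16.2 against 76.5 FPKM, median of the list 0.16, all genes -0.05), near the 14.7% of all genes that were lower, and 3 were with equal ribosomal protein sums. That scaling put 2911 of all 9011 genes lower, against 1324 as deposited. In the pharate haltere 2 of 7 were lower than in the wing, fng at 171 against 378 FPKM and Ser at 15.2 against 47.8 (median of the list -0.45, all genes -0.10), where 18.8% of all genes were lower. With upper quartile scaling 1 of 7 was lower, and with equal summed FPKM 1 was higher and 1 lower. The gene caps was listed at 289, 243 and 177 FPKM in the pharate leg, haltere and wing. Its order as deposited was the reverse of that of ap, but leg against haltere turned sign with equal summed FPKM (-0.32) and haltere against wing with equal ribosomal protein sums (-0.08).

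Genes expressed at the dorsoventral border in response to Notch differed in direction between leg and wing discs. The share of all genes 2-fold lower in the leg disc relative to the wing disc was 3.55%, and 10.7% were higher. Of 8 border genes, 1 was 2-fold lower in the leg disc, vg at 2.76 against 314 FPKM. There were 2 higher, Wnt6 at 307 against 140.5 and the Notch target E(spl) at 753 against 335. Under equal ribosomal protein sums or equal summed FPKM 0 were higher and vg alone was lower. The margin gene wg had 177, 144 and 199 FPKM in leg, haltere and wing discs, and the median of the list for leg against wing disc was -0.13 (all genes 0.05). In the haltere disc 2 of 8 were lower than in the wing disc, vg at 110.1 against 314 and Dl at 48.8 against 115, and 0 higher. The median was -0.54 (all genes 0.04), and 4.29% of all genes were lower. Under equal ribosomal protein sums or equal summed FPKM 5 were lower, beside 1884 and 1551 of all 8577 genes (368 as deposited). At the pharate stage wg was listed at 2.97, 11.6 and 22.1 FPKM in leg, haltere and wing and vg at 2.59, 55.0 and 127, both in the order of ap. Of 7 compared, 2 were higher and 3 lower in the pharate leg relative to the wing (median -0.74, all genes -0.05), where 21.7% of all genes were higher and 14.7% lower. In the pharate haltere 2 were lower (median -0.39, all genes -0.10), near the 18.8% of all genes that were lower. There 0 to 3 were lower and 0 to 2 higher over the scalings tried, which put 899 to 3124 of all 8990 genes lower (1689 as deposited). E(spl) was listed at 0 in all 3.

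Genes that act before ap, the EGF pathway and Iroquois genes and the factors grn, Antp, hth and exd, gave 2 of 10 that were 2-fold lower in the leg disc relative to the wing disc (median -0.52). These were the Iroquois genes mirr at 3.89 against 184 FPKM and caup at 94.0 against 268. Another Iroquois gene, ara, was listed at 150 FPKM in the leg disc against 258 in the wing disc, the EGF ligand gene vn at 33.6 against 54.1, and its receptor gene Egfr at 292 against 419. One gene counted as higher, hth, had 118 FPKM in the leg disc and was listed at 0 for wing discs. Of all genes, 3.55% were 2-fold lower in the leg disc and 10.7% higher. In the haltere disc 2 of 10 were lower than in the wing disc, Antp at 23.9 against 61.4 FPKM and Egfr at 209 against 419, where 4.29% of all genes were lower. Again hth counted as higher, at 292 FPKM in the haltere disc against a listed 0. With equal ribosomal protein sums or equal summed FPKM 9 of 10 were lower, beside 1884 and 1551 of all 8577 genes (368 as deposited). In the pharate haltere 5 of 9 compared were lower than in the wing (median -1.07, with 18.8% of all genes lower and 20.3% higher), among them ara at 9.09 against 159 FPKM, caup at 7.02 against 140.2 and Antp at 1.53 against 21.6. Between 3 and 7 were lower over the scalings tried, beside 899 to 3124 of all 8990 genes (1689 as deposited). The EGF pathway factor gene pnt was the 1 higher gene, at 143 FPKM in the pharate haltere against 64.3 in the pharate wing, and 0 were higher with equal ribosomal protein sums. Between pharate leg and wing 3 of 10 were higher in the leg and 3 lower (median -0.35, with 21.7% of all genes higher and 14.7% lower). Among those higher was hth, at 90.1 FPKM in the pharate leg and listed at 0 in the pharate wing.

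In the leg, ap belongs to the network that divides the tarsus. Between leg and wing discs, 10.7% of all genes were 2-fold higher in the leg disc and 3.55% lower. Of 11 tarsal genes, 7 were 2-fold higher in the leg disc relative to the wing disc and 2 lower (median 1.64, all genes 0.05), and 6 were higher with equal ribosomal protein sums. Those furthest above were Lim1 (54.2 against 0.443 FPKM), dac (467 against 29.7) and bab2 (330 against 53.8), and Dll stood at 866 against 229. The 2 lower ones were rn (26.1 against 217) and ss (11.4 against 46.8), both of which are known to act in the wing or antenna too. With 61.9 FPKM in the leg disc, ap stood near Lim1 there, above B-H1 (35.3) and B-H2 (20.5) and below C15 (199.8) and al (522).

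The embryonic genes of Ap neurons and Ap muscles were compared between stages next. Of 8 compared genes of Ap neurons, 8 were 2-fold higher at 6 to 8 h (median 2.01, all genes -0.07) under each scaling tried. The cofactor gene eya was listed at 32.3, 130.5 and 25.7 FPKM with time, and the factor gene kn at 11.8, 51.4 and 94.6. The neuropeptide genes came late, with Nplp1 at 0, 3.30 and 65.5 FPKM, Fmrf at 0, 0 and 4.05, and the neurosecretory regulator dimm at 0, 0 and 9.66. Of the 5 muscle genes, 4 were 2-fold higher at 6 to 8 h (median 2.18) and 0 lower, where 25.9% of all genes were higher and 18.9% lower. Dr was listed at 28.9, 136 and 51.0 FPKM, ara at 0, 51.1 and 76.4, caup at 3.71, 120.1 and 66.5 and lms (listed as CG13424) at 0.996, 7.86 and 15.5. Kr, at 402, 364 and 60.5 FPKM, was the muscle gene within 2-fold between the first 2 stages. Neuron markers summed to 65.9 FPKM at 2 to 4 h, where n-syb, Syt1 and brp were at 0, while later embryos had sums of 473 (6 to 8 h) and 1040.5 (16 to 18 h). Of these sums elav alone held 65.9, 469 and 208 with time. At 16 to 18 h elav was 2-fold lower than at 6 to 8 h (-1.17), while the other 3 were 2-fold higher. Between 6 to 8 h and 2 to 4 h, 6 of 6 muscle markers were higher (sums 1964 against 296 FPKM), as were 3 of 3 tracheal markers (196 against 9.27), 3 of 4 myoblast markers (1002 against 972, with 1 lower) and 2 of 5 epithelial markers (1376 against 741). The part of these cells in the ap values was not tested.

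Likeness to ap was measured over all 9 samples, on log2(FPKM + 1) after subtraction of the mean of each table, as the root mean square difference from ap. Over the 11185 genes with at least 5 FPKM in some sample the median difference was 1.74. The nearest was nab, a transcription cofactor gene of the wing and nerve cord, at 0.653, followed by mirr at 0.681 and Dr at 0.682. Then came CG6289 (0.715), CG4766 (0.724), CG33671 (0.775), the ubiquitin ligase gene Trim9 (0.837) and the T-box gene bi of the wing (0.847). CG6289 was low throughout, listed from 0 to 5.18 FPKM, and passed the limit of 5 FPKM through the pharate wing only. Its likeness thus rests on values near 0. In leg, haltere and wing discs nab was listed at 21.2, 279 and 278 FPKM, and in pharate leg, haltere and wing at 0, 2.74 and 10.3. So nab matched the order of ap at a far lower pharate level, and in discs it was level between haltere and wing. In embryos nab was listed at 3.20, 8.47 and 10.9 FPKM with time. At 6 to 8 h it stood 1.17 above 2 to 4 h, against 3.71 for ap. Outside the discs its likeness thus also rests on low values. Mirr was listed at 3.89, 129 and 184 FPKM in the discs, in leg, haltere and wing order, and at 4.99, 20.4 and 43.9 in pharate appendages. Over the 6 appendage samples the nearest genes were nab (0.245), the peptidase gene Nep1 (0.312), Dr (0.365), the cuticle protein gene TwdlM (0.416) and CG31997 (0.476). These genes were measured in the same libraries, and the likeness is a description.

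**Figure D5:**
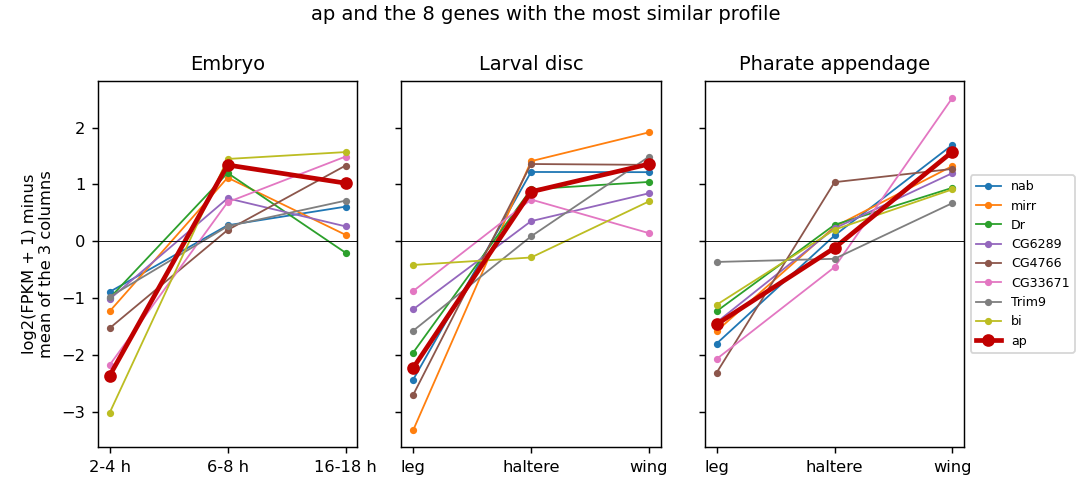
Profiles of ap (thick red) and the 8 genes nearest to it over 9 samples, as log2(FPKM + 1) minus the mean of the 3 columns of each table. All 9 genes are lowest in the leg among pharate appendages and at 2 to 4 h among embryos, and bi departs from ap in the discs, where leg (61.1 FPKM) and haltere (67.0) are close.

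Genes next to ap on the chromosome, by their order in RefSeq Release 6, had other profiles. The gene on one side, vlc, was listed at 231, 145 and 228 FPKM in leg, haltere and wing discs and at 226, 253 and 344 in the pharate leg, haltere and wing. Its neighbour on the other side was listed at 304, 288 and 386 FPKM in the discs and at 45.7, 78.6 and 44.8 in the pharate appendages. In embryos vlc was listed at 745, 492 and 178 FPKM and the other neighbour at 493, 344 and 131 with time, both highest at 2 to 4 h, when ap was lowest.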

How the data were processed

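The deposited values were FPKM in 3 tables, embryo, disc and pharate, with 1 column per sample, per the file headers. TopHat 1.1.4, Cuffdiff, Bowtie 0.12.3, CASAVA 1.7 and MACS2 are named in the submitters' processing notes, with build dm3 and no settings, so scaling between columns and strand use in counting are not given in the sources used here. Depth is unknown, and no interval could be set. Entries with a repeated name (248 of 13934) were left out, leaving 13686 genes. Differences are log2((FPKM + 1)/(FPKM + 1)) within a table, with no test. List medians leave out genes at 0, and counts include them. The 9 gene lists, 9 marker lists, and members were chosen with earlier results of these data known. Named genes were ap, all members of short lists, fixed members and those furthest apart of longer lists, and the nearest genes, and further list members given for their roles (such as ara, vn, Egfr, al, C15, B-H1 and B-H2) were chosen after their values were seen. The arm and identifier of ap come from RefSeq Release 6. Of 105 listed genes, 101 were matched. Steps were tested on simulated data, in Python 3.11.15 with pandas 2.3.3. FAIRE peaks of 11 samples and 2 inputs were not used here, and no sequence is shown.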

Additional observations from a re-analysis of the deposited data

Results flagged for a closer look

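Genes of the 9 gene lists that were above 0 in all 4 samples involved were searched for differences of at least 2-fold with opposite signs in pharate appendages and in discs. Marker lists were not searched, and genes listed at 0 in one of the samples, such as hth and sd, were left out. There were 4 such differences, among 3 genes, and none could be tested, since each tissue had 1 value. For eya, the pharate leg (20.1 FPKM) was above the pharate wing (1.87 FPKM) by 2.88 on the log2 scale, whereas the leg disc (2.50 FPKM) was below the wing disc (27.4 FPKM), a difference of -3.02. Against the haltere, eya in the leg differed by 3.68 at the pharate stage (20.1 against 0.648 FPKM) and by -2.92 in discs (2.50 against 25.5 FPKM). For ss, leg against haltere gave 4.03 at the pharate stage (57.2 against 2.57 FPKM) and -1.02 in discs (11.4 against 24.3 FPKM), but the disc difference was under 2-fold with each of the 4 scalings tried (-0.98 to -0.65). For bab1, the same pair gave -1.04 at the pharate stage (4.90 against 11.1 FPKM) and 2.06 in discs (18.4 against 3.65 FPKM). Those of eya and bab1 kept both signs and 2-fold with each scaling. No such change of sign was found for ap.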

How the results depend on the processing

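No paired analysis was possible because each tissue had 1 column. Over 7 alternatives to the pseudocount and the scaling, 59 of 63 differences of ap kept their direction and their side of 2-fold. For haltere against wing disc, ap passed 2-fold with equal ribosomal protein sums (-1.13) and equal summed FPKM (-1.06). For embryos at 16 to 18 h against 6 to 8 h the sign turned with upper quartile scaling (0.18) and equal ribosomal protein sums (0.025). The cause was not tested. Both scalings by summed FPKM were chosen after seeing the data. Ranked among genes above 0 only, the percentile of ap was 7.74, 35.5 and 32.1 in embryos with time, 38.3, 86.5 and 91.9 in leg, haltere and wing discs, and 47.9, 71.9 and 86.9 in the pharate leg, haltere and wing, lower by construction. With repeated names included the percentile of ap was 44.7 at 2 to 4 h and 94.7 in the wing disc. Of the 8 genes nearest to ap, 5 were among the first 8 by Pearson correlation, which put vg first (0.957), and 3 over the 6 appendage samples. Counts of genes 2-fold apart stayed within 1.5 times in 70 alternatives, and in 2 did not, haltere against wing disc with equal ribosomal protein sums (2966) and equal summed FPKM (2652), against 1697 as deposited, and the scalings of these counts were added after seeing the data. Leaving out replicates could not be run with 1 pooled value per tissue, and low values such as ap at 2 to 4 h carry an unknown counting error.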

Other observations

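Selector genes of the other wing axis were compared in the same way. The posterior selector en was listed at 209, 145 and 247 FPKM in leg, haltere and wing discs, inv at 173, 178 and 208, and the anterior factor ci at 274, 243 and 346. Of 5 such genes with vg and sd, vg was 2-fold lower in the leg disc and in the haltere disc, each against the wing disc, and sd counted as higher because it was listed at 0 in the wing disc. The share of all genes that much lower was 3.55% for the leg disc and 4.29% for the haltere disc. With equal ribosomal protein sums or equal summed FPKM 3 of the 5 were lower in the haltere disc, beside 1884 and 1551 of all 8577 genes (368 as deposited). Among pharate appendages en was listed at 7.46, 11.3 and 61.0 FPKM in leg, haltere and wing, and inv at 19.3, 20.4 and 129. There 3 of 5 were lower in the leg (median -2.68) and 4 of 5 in the haltere (median -1.76), each against the wing, with 14.7% and 18.8% of all genes lower, and 0 were higher, with 3 or 4 lower in either comparison over the scalings tried.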
